A study of Mus musculus with 12 samples.

Results

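Matrix metalloproteinases and their tissue inhibitors form the set of genes described here, in osteoclasts that were grown alone, with eosinophils or with eosinophil supernatant. The set was defined by name as 6 metalloproteinase genes (Mmp8, Mmp9, Mmp12, Mmp13, Mmp14 and Mmp19) and 3 inhibitor genes (Timp1, Timp2 and Timp3), so that it holds 9 of the 47643 genes in the count table. Matrix metalloproteinases are zinc-dependent endopeptidases that cut collagens and other proteins of the extracellular matrix, and most are made as inactive proenzymes. The TIMP proteins bind the active enzymes and block them. In bone, osteoclasts dissolve the mineral with acid and digest the collagen mainly with cathepsin K, while Mmp9 is a classical osteoclast product and Mmp14 a membrane-bound protease of the same cells.

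Osteoclasts were differentiated from monocytes of the bone marrow (BMMs), taken from WT mice of the BALB/c strain, and each of the 3 groups held 4 libraries of bulk RNA-seq. The OCsCtr cultures received no stimulus. The OCsEo cultures received 2 sorted eosinophils per BMM, and the OCsEoS cultures received the supernatant of cultured eosinophils at a dilution of 1 to 2. The stimulus was added on day 0, washed away after 48 h, and RNA was taken on day 3. All cultures grew in osteoclast medium with M-CSF and RANKL, the factors that drive osteoclast formation. In OCsEoS a part of it had been conditioned by eosinophils, with M-CSF and RANKL adjusted. None of the sequenced groups received a control supernatant. The eosinophils came from IL-5tg/4get mice, which overproduce eosinophils, and were sorted from blood and bone marrow, so that they are cells of an IL-5 transgenic animal and not of the WT mice that gave the BMMs. The study's methods call the libraries of a group biological replicates, and its legends speak of plotted symbols as single mice. The labels name no mouse, and p-values measure the spread between these libraries. The stimulated groups are both compared with the same OCsCtr libraries, so that their differences from OCsCtr are not independent of each other. The study does not state that the supernatant was matched in dose to the added eosinophils. Differences between OCsEo and OCsEoS therefore cannot be told apart from a difference in dose.

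Total counts ranged from 27837530 to 40327869 per library, at which 3 counts corresponded to 0.0769 to 0.107 CPM (counts scaled to the library total, adjusted by the TMM method). The 18 pairs of replicates differed by more than sampling noise (chi-square per degree of freedom 10.2 to 36.5). The cultures expressed all 8 osteoclast marker genes examined, with a summed level of 20597 to 24693 CPM in OCsCtr, 13636 to 17450 in OCsEo and 11781 to 16747 in OCsEoS. The sums over 10 eosinophil markers were 57.1 to 73.7, 60.1 to 82.1 and 49.3 to 55.4 CPM in the same order of groups, of which Ccr3 alone averaged 59.6, 48.7 and 50.7 CPM. The eosinophil granule genes Epx, Prg3, Ear1 and Ear6 were at 0 in every OCsEoS library. They were also near 0 elsewhere, with means of 0.0664, 0.305, 0.0666 and 0.187 CPM in OCsCtr and 0.203, 0.228, 0.369 and 0.263 in OCsEo. All 4 had too few counts to be tested. In OCsEoS the markers Prg2 and Ear2 averaged 0.815 and 0.250 CPM.

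The sequences in front of Mmp12 and Mmp14 are shown because these genes moved in opposite directions in both stimulated groups. They are the 250 bases before the transcription start in RefSeq (assembly GRCm38.p6), both on the plus strand, and Mmp12 has a pair of annotated starts, at chr9:7344147-7344396 and chr9:7347124-7347373. The Mmp14 stretch lies at chr14:54431348-54431597. Capitals mark the letters of 4 motifs found on either strand, namely AP-1 (TGACTCA or TGAGTCA), PU.1 (GAGGAA or TTCCTC), the TATA box (TATAAA or TTTATA) and the GC box (GGGCGG or CCGCCC).
Mmp12, start 1: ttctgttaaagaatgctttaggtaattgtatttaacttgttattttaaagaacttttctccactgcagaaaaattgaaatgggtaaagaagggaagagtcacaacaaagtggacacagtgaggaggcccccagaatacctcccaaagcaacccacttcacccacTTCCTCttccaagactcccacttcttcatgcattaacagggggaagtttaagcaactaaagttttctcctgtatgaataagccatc
Mmp12, start 2: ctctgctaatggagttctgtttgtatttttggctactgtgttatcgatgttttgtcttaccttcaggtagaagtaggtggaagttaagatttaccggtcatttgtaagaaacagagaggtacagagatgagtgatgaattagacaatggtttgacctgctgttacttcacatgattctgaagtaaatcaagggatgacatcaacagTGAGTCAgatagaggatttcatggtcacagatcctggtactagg
Mmp14: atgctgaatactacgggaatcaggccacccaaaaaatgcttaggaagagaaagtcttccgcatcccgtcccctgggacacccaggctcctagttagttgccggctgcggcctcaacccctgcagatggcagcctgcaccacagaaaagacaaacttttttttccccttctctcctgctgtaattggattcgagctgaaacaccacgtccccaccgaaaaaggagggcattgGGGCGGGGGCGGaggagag
The upstream Mmp12 stretch held 1 PU.1 match at -86 to -81 from the start, and the downstream stretch held 1 AP-1 match at -44 to -38. The Mmp14 stretch held 2 GC box matches, at -19 to -14 and -13 to -8. Of 32851 promoters of the same length, 4.46% held the AP-1 letters, 23.3% those of PU.1, 32.7% a GC box and 12.4% the TATA letters. Promoters were found for 7 of the 9 genes, Mmp9 and Mmp19 being the others. The AP-1 letters were also present in the Mmp13 promoter (-35 to -29), together with the TATA letters, and PU.1 letters were present in that of Mmp8. A GC box was present in those of Timp1, Timp2 and Timp3. The letters of a STAT6 site (TTC and GAA with 4 bases between, in 5.85% of promoters) were in none of the 8 stretches, and the NFAT core GGAAA or TTTCC, in 55.6% of promoters, was in those of Mmp13, Mmp14 and Timp1. These matches describe letters and do not show binding, and the counts per gene do not tell which Mmp12 start was used.

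In unstimulated osteoclasts the 9 genes spanned a wide range of levels, with Mmp9 far above the others. Levels are compared between genes per kilobase of the listed gene length. The mean levels in OCsCtr were 2384 ± 241 CPM per kilobase for Mmp9 (SD, n = 4, as for all values with ± here), 93.6 ± 3.40 for Mmp14 and 33.0 ± 2.79 for Timp2. Next in order were Mmp8 at 13.1 ± 2.45, Timp1 at 10.0 ± 5.81 and Mmp12 at 7.07 ± 1.73, and the libraries of Timp1 overlapped those of both of its neighbors. The lowest were Mmp19 at 3.63 ± 0.309, Mmp13 at 0.640 ± 0.242 and Timp3 at 0.262 ± 0.122, the last pair overlapping. In the stimulated groups the order changed mainly through Mmp12, which stood in place 6 in OCsCtr and in place 4 in OCsEo (25.9 ± 2.17) and OCsEoS (16.7 ± 0.869). The place of Mmp12 depends on the length used, since the listed 7237 bases join all annotated exons and the longest principal transcript has 3607. Per kilobase of that transcript, Mmp12 stood in place 4, 3 and 4 in OCsCtr, OCsEo and OCsEoS, with means of 14.2, 52.0 and 33.4 CPM per kilobase.

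**Figure D1:**
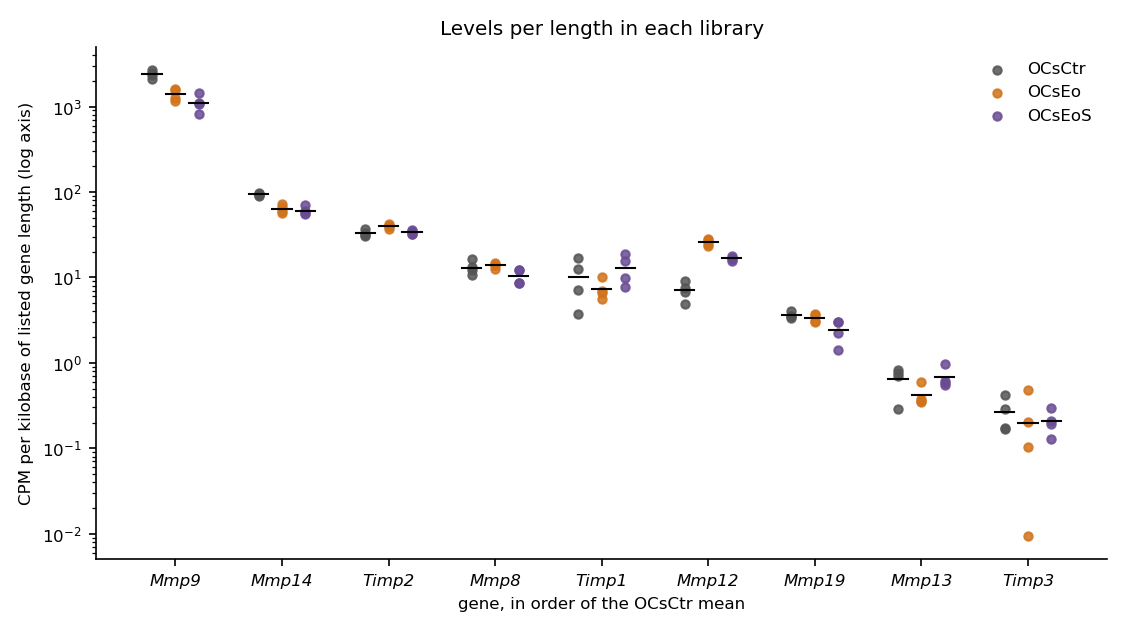
Level of each gene per length. The vertical log axis gives CPM per kilobase of listed gene length, each point is a library, colors are the 3 groups and black lines are group means. Mmp9 lies above all other genes in every library, at 815 or more, and the Mmp12 points of OCsEo and OCsEoS lie above those of OCsCtr.

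Among the 9 genes, 3 were called in OCsEo against OCsCtr (Mmp12 higher, Mmp9 and Mmp14 lower), where 5.88% of the 13681 tested genes were called, 3.27% higher and 2.61% lower. A gene was called at a Benjamini-Hochberg adjusted p under 0.05, over all genes tested with edgeR's quasi-likelihood test, and an absolute log2 fold change over 0.5. In OCsEoS against OCsCtr 4 were called (Mmp12 higher, Mmp9, Mmp14 and Mmp19 lower), where 7.73% of all genes were called, 3.63% higher and 4.11% lower. Directly between the stimulated groups 1 was called (Mmp12, lower in OCsEoS than in OCsEo), where 0.38% of all genes were called, 0.0731% higher and 0.307% lower. At an adjusted p under 0.05 and any fold change, 4, 4 and 1 of the 9 genes passed, against 17.4%, 23% and 0.592% of all genes. All 9 genes passed the filter on low counts. The libraries of the compared groups did not overlap for 4, 4 and 3 of the 9 genes in these comparisons, against 21.5%, 25.7% and 5.47% of all genes tested.

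**Figure D2:**
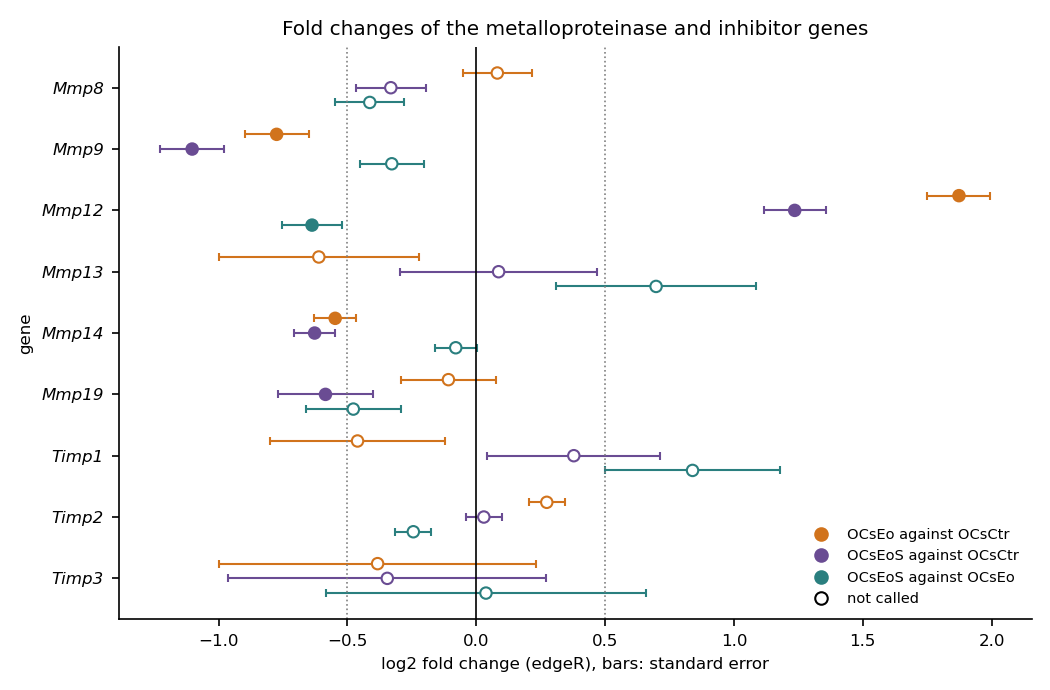
Log2 fold changes of the 9 genes from edgeR in the 3 comparisons, with bars for the standard error. Filled points passed both thresholds, open points did not, and dotted lines mark the cut-off of 0.5 on either side of 0. Mmp12 at 1.87 and 1.24 is the only gene with filled points to the right of 0.

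Mmp9, the gelatinase B that degrades denatured collagen, was the most abundant member and fell in both stimulated groups. The gene lies on chromosome 2 (chr2:164940780-164955850, plus strand, GRCm38). The OCsCtr libraries held 7362, 8672, 8299 and 9411 CPM, the OCsEo libraries 4157, 5675, 4421 and 5471 CPM, and the OCsEoS libraries 3817, 5067, 3947 and 2883 CPM. No stimulated library reached the lowest OCsCtr library, whereas OCsEo and OCsEoS overlapped. The group means were 8436 ± 852, 4931 ± 754 and 3929 ± 895 CPM. Against OCsCtr the log2 fold change was -0.77 in OCsEo (SE 0.12, edgeR adjusted p = 2.33e-04) and -1.10 in OCsEoS (SE 0.12, edgeR adjusted p = 7.59e-06). In OCsEo, Mmp9 was not called at a cut-off of 1 or by edgeR's glmTreat test against a change of 0.5 (adjusted p = 0.376). The log2 fold change between the stimulated groups was -0.33 (95% interval -0.61 to -0.05, adjusted p = 0.293 from edgeR), so that a difference between cells and supernatant was not called. As a share of all counts, Mmp9 took 0.758% to 0.952% in OCsCtr, where it ranked 3 or 4 among all genes. It took 0.422% to 0.572% in OCsEo (ranks 5 to 10) and 0.290% to 0.507% in OCsEoS (ranks 8 to 22).

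The genes most like Mmp9 across the libraries were Calcr, the calcitonin receptor gene of osteoclasts, with a Pearson r of log2 CPM of 0.993, followed by Sdha at 0.992 and Acp5, which encodes TRAP, at 0.992. These are the highest of 10630 genes whose log2 CPM averaged 1 or more, over 12 libraries, and the 12 points include the differences between the groups. Osteoclast markers moved with Mmp9. Of the 8 osteoclast markers, 7 were called lower in each stimulated group, with medians of -0.56 and -0.76 against -0.01 and -0.01 over all genes tested. The shares of all genes called lower were 2.61% in OCsEo and 4.11% in OCsEoS. In these bulk cultures, fewer osteoclasts and less RNA of a gene per osteoclast cannot be told apart.

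Mmp14, the membrane-type metalloproteinase MT1-MMP, fell in the same groups as Mmp9. It lies at chr14:54431612-54441265, plus strand. The OCsCtr libraries held 389, 420.4, 408 and 392 CPM, the OCsEo libraries 257, 313, 244 and 287 CPM, and the OCsEoS libraries 246, 305, 256 and 235 CPM. Every stimulated library was below every OCsCtr library, and the stimulated groups overlapped over nearly their whole range. Its log2 fold change in OCsEo was -0.55 (standard error, SE, 0.08, edgeR adjusted p = 1.12e-04), and in OCsEoS -0.63 (SE 0.08, edgeR adjusted p = 2.29e-05). Between the stimulated groups it was -0.08 (95% interval -0.26 to 0.10, adjusted p = 0.767). The OCsEo value was close to the cut-off, and without OCsEo 3 it was -0.50, just under it. In both stimulated groups, Mmp14 was not called at a cut-off of 1 or by edgeR's glmTreat test against a change of 0.5. Library 2 was the highest of its group for both Mmp9 and Mmp14 in OCsEo and in OCsEoS, and OCsEoS 4 was the lowest for both. Across the 12 libraries the most similar genes were Mov10 (r = 0.987), the phosphate exporter gene Xpr1 (0.986) and Gna13 (0.986).

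Mmp12, the macrophage elastase, rose in both stimulated groups, and it rose further with eosinophils than with their supernatant at the doses used. It lies at chr9:7344381-7369499, plus strand. The OCsCtr libraries held 35.7, 65.6, 48.6 and 54.9 CPM, the OCsEo libraries 203, 170.1, 179 and 199 CPM, and the OCsEoS libraries 127, 112, 119.9 and 123 CPM. The 3 groups did not overlap, in the order OCsCtr, OCsEoS, OCsEo. The mean was 3.67 times that of OCsCtr in OCsEo and 2.36 times in OCsEoS. On the log2 scale this was a change of 1.87 in OCsEo (SE 0.12, edgeR adjusted p = 1.04e-08), which ranked 3 by p among all genes tested. In OCsEoS it was 1.24 (SE 0.12, edgeR adjusted p = 2.26e-06), which ranked 16. Between the stimulated groups the log2 fold change was -0.64 (SE 0.12, edgeR adjusted p = 0.0148), with 4 of 4 OCsEoS libraries below all OCsEo libraries. Without OCsEoS 3 this difference was -0.63 with an adjusted p of 0.0647 from edgeR and was not called.

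Since Mmp12 is typical of macrophages, macrophage and eosinophil markers are given beside it. Of 8 macrophage markers, Cd14 was called higher in OCsEo, and Cd14, Adgre1 and Mrc1 were called higher and Csf1r lower in OCsEoS. The median log2 fold changes of the 8 were 0.30 in OCsEo and 0.47 in OCsEoS. The summed macrophage markers were 2269 to 2588 CPM in OCsCtr, 2079 to 2424 in OCsEo and 1865 to 2240 in OCsEoS. Most of these sums came from Csf1r (means of 1237, 909 and 835 CPM) and Cd68 (754, 737 and 599 CPM). The other macrophage markers had higher means in both stimulated groups than in OCsCtr. Of 10 eosinophil markers, 5 passed the filter on low counts. Siglecf (0.428 CPM in OCsCtr and 2.94 in OCsEo) and Alox15 (0.300 CPM in OCsCtr and 11.0 in OCsEo) were called higher in OCsEo. In OCsEoS neither of these was called higher, and Prg2 was called lower. Alox15 and Prg2 were also called lower in OCsEoS than in OCsEo. Prg2 was not raised in OCsEo, with means of 5.53, 5.49 and 0.815 CPM in OCsCtr, OCsEo and OCsEoS. Ear2 and Ccr3 were not called in any comparison. The part of either cell type in the Mmp12 values was not tested. The genes most like Mmp12 over the 12 libraries were the ferritin gene Ftl1, the interleukin 7 receptor gene Il7r and the glutathione peroxidase gene Gpx1, all with an r of 0.967.

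**Figure D3:**
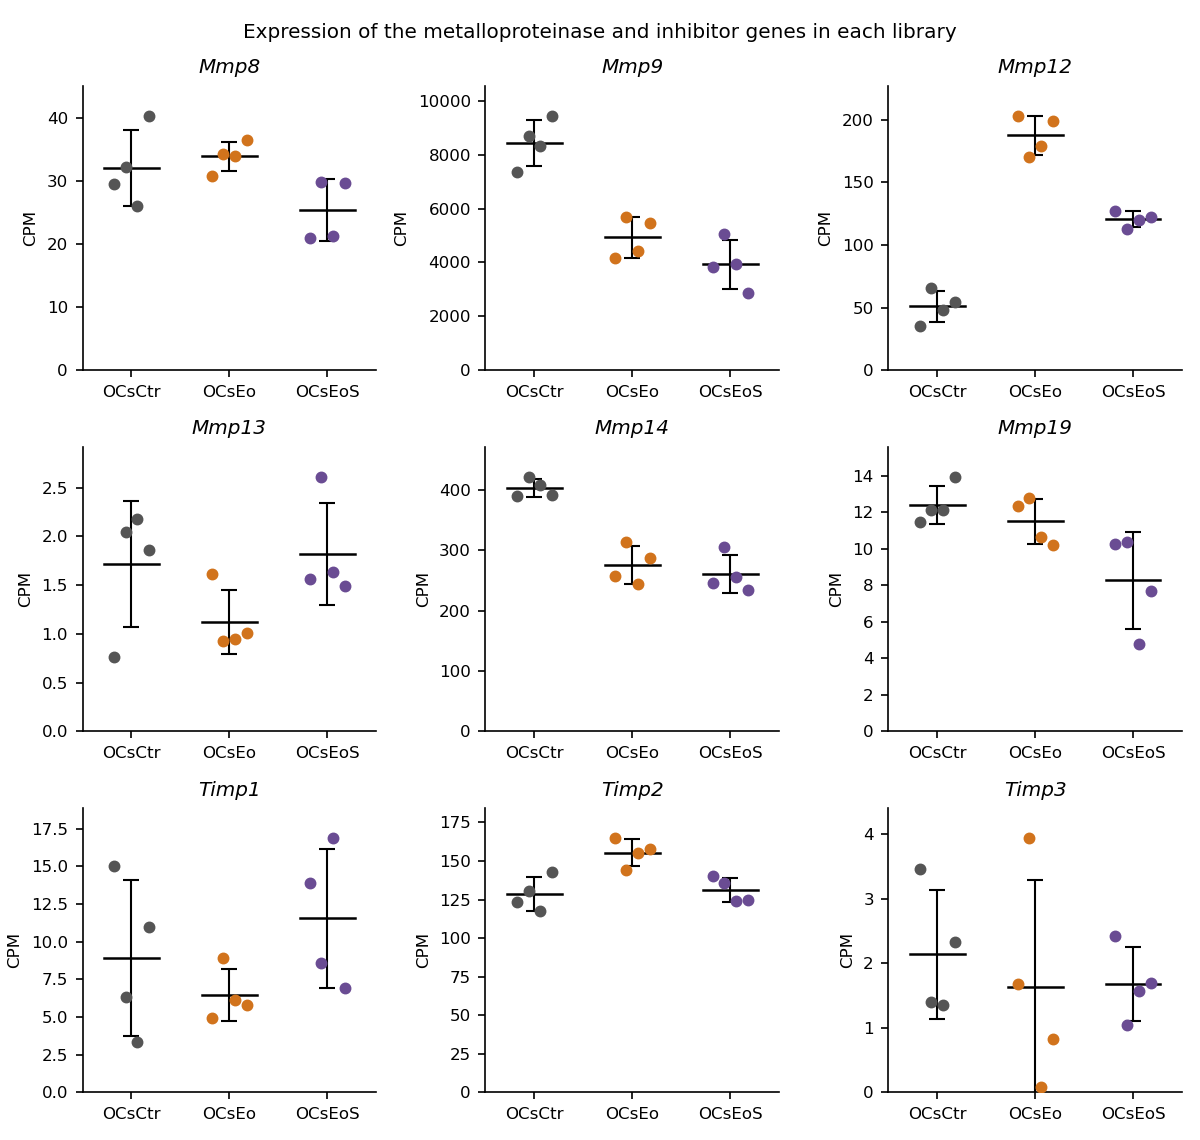
CPM of the 9 genes in each library, on a linear axis from 0 that differs between panels. Points are libraries, horizontal lines are group means and bars are 1 SD over 4 libraries. Mmp9 and Mmp14 are below OCsCtr in all stimulated libraries, Mmp12 is above it in all of them, and Timp1, Timp3 and Mmp13 overlap between groups.

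The collagenase genes Mmp8 and Mmp13 showed no called change. Mmp8, the neutrophil collagenase (chr9:7558429-7568486, plus strand), held 29.6, 32.2, 26.1 and 40.2 CPM in OCsCtr, 30.9, 34.3, 34.0 and 36.5 in OCsEo, and 21.0, 29.8, 21.3 and 29.6 in OCsEoS. The OCsEoS libraries all lay below the OCsEo libraries, and the other pairs of groups overlapped. The log2 fold change was 0.08 in OCsEo (adjusted p = 0.746), -0.33 in OCsEoS (adjusted p = 0.0844) and -0.41 between the stimulated groups (95% interval -0.72 to -0.11, adjusted p = 0.219), all from edgeR. Neutrophil markers were measured beside it. Of 10 such genes, Elane and Camp were called higher in OCsEo against OCsCtr, and Mpo, Ltf and Ngp lower in OCsEoS against OCsEo. Their sum was 314 to 457 CPM in OCsCtr, 457 to 611 in OCsEo and 357 to 426 in OCsEoS, and its part in the Mmp8 values was not tested. The gene most like Mmp8 was Gpsm3 (r = 0.928 over 12 libraries), ahead of Itgb7 (0.867) and Adi1 (0.844).

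Mmp13, collagenase-3, which in bone is mainly known from osteoblasts and cartilage cells, was scarcely expressed, at 22 to 90 counts per library. It lies at chr9:7272514-7283333, plus strand. The values were 0.762, 2.05, 2.18 and 1.87 CPM in OCsCtr, 1.61, 0.930, 0.948 and 1.00 in OCsEo, and 1.57, 2.60, 1.63 and 1.49 in OCsEoS. The groups overlapped in every comparison. The log2 fold changes were -0.61 (95% interval -1.49 to 0.27) in OCsEo and 0.09 (-0.78 to 0.95) in OCsEoS, with adjusted p-values of 0.323 and 0.908 from edgeR. Its most similar gene was Samd10 (r = 0.828), before Kctd10 (0.817) and Enpp4 (0.810).

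Mmp8, Mmp12 and Mmp13 belong to a cluster of 10 metalloproteinase genes on chromosome 9, which covers 427072 bases from 7272514 to 7699585 in GRCm38. Of the 3 members there, Mmp12 rose in both stimulated groups, and Mmp13 and Mmp8, which lie on either side of it, were not called. Of the other 7 genes of the cluster, 6 had at most 35 counts in any library, with Mmp1a, Mmp1b and Mmp20 at 0 in all 12. The last of them, Mmp27, had 38 to 127 counts and changes of 0.42 and 0.46 on the log2 scale (adjusted p = 0.483 and 0.400 from edgeR). Mmp12 overlaps Mmp1b on the opposite strand, which had no counts.

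Mmp19, a secreted metalloproteinase of a separate subfamily, fell with eosinophil supernatant, a call that depended on single libraries. It lies at chr10:128790953-128800824, plus strand. The values were 11.4, 12.1, 12.1 and 13.9 CPM in OCsCtr, 12.3, 12.8, 10.7 and 10.2 in OCsEo, and 10.2, 10.4, 4.78 and 7.67 in OCsEoS. All OCsEoS libraries lay below the OCsCtr libraries, with OCsEoS 3 the lowest, and OCsEo overlapped both. Mmp19 had a log2 fold change of -0.59 in OCsEoS (SE 0.19, edgeR adjusted p = 0.0273) and -0.11 in OCsEo (95% interval -0.52 to 0.31, adjusted p = 0.755). From OCsEo to OCsEoS the change was -0.48 (95% interval -0.90 to -0.06, adjusted p = 0.325). Mmp19 in OCsEoS was not called without OCsCtr 2 (-0.59, adjusted p = 0.0511), OCsCtr 4 (-0.53, 0.0812), OCsEoS 3 (-0.39, 0.0774) or OCsEoS 4 (-0.55, 0.0683), all from edgeR. Tmem198b overlaps Mmp19 on the opposite strand with 116 to 240 counts, and whether the counting used strand is not given in the sources used here. The log2 fold changes of Tmem198b were 0.23 and 0.38, neither called. The antisense gene Gm47093, which GENCODE places at the same locus, was not analysed here. The genes most like Mmp19 were Mark2 (r = 0.904), Fam49a (0.904) and Atxn1 (0.899).

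The inhibitor genes showed no called change in any of the 3 comparisons. Timp2, which besides inhibition takes part in the activation of pro-MMP2 by MT1-MMP, was the main inhibitor per length. It lies at chr11:118301069-118355740, minus strand. The values were 124, 131, 117 and 143 CPM in OCsCtr, 165, 144, 155 and 158 in OCsEo, and 140.3, 136, 124 and 125 in OCsEoS. Every OCsEo library was above all libraries of the other 2 groups, which overlapped each other. The log2 fold change in OCsEo was 0.27 (SE 0.07, 95% interval 0.12 to 0.43, adjusted p = 0.00922 from edgeR), which passed the p threshold and stayed under the fold change cut-off. In OCsEoS it was 0.03 (95% interval -0.13 to 0.19, adjusted p = 0.821), and between the stimulated groups -0.24 (95% interval -0.40 to -0.09, adjusted p = 0.147). Cep295nl, which overlaps Timp2 on the same strand, had 0 to 7 counts. The genes most like Timp2 were Fuca1 (r = 0.951), the lysosomal gene Psap (0.916) and Gsr (0.907).

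Timp1, the inducible inhibitor that binds pro-MMP9, varied widely within the groups. It lies at chrX:20870166-20874735, plus strand. The values were 15.0, 6.32, 3.33 and 11.0 CPM in OCsCtr, 4.93, 8.90, 6.15 and 5.82 in OCsEo, and 13.9, 8.62, 16.9 and 6.91 in OCsEoS. The libraries overlapped in all 3 comparisons. The log2 fold change was -0.46 (95% interval -1.23 to 0.31, adjusted p = 0.406) in OCsEo, 0.38 (-0.38 to 1.14, adjusted p = 0.476) in OCsEoS and 0.84 (0.07 to 1.61, adjusted p = 0.346) between the stimulated groups, from edgeR. Without a filter on low counts, the last difference was 0.84 with an adjusted p of 0.0256 and was called.

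Fibroblast and stroma markers were measured beside the inhibitors. The sum of 10 such genes was 90.6, 20.9, 22.2 and 50.9 CPM in OCsCtr, 18.4, 60.2, 22.9 and 21.6 in OCsEo, and 45.9, 33.3, 68.3 and 23.0 in OCsEoS. The library with the highest sum was also the library with the highest Timp1 in each group, namely OCsCtr 1, OCsEo 2 and OCsEoS 3. The gene most like Timp1 over the 12 libraries was Sparc (r = 0.889), 1 of these 10 markers, followed by Tagln (0.852) and Tm4sf1 (0.849). None of the 9 markers that passed the filter was called by edgeR or DESeq2 in any comparison, and at an unadjusted p under 0.05 there were 0, 0 and 1. The part of such cells in the Timp1 values was not tested. Timp1 lies within the neuronal gene Syn1 on the opposite strand, which had 133 to 282 counts. Whether exons of the pair overlap was not examined, and the use of strand is not given. The part of reads from one gene in the counts of the other is therefore not known. Syn1 was at -0.26 in OCsEo (adjusted p = 0.374) and at -0.55 in OCsEoS (adjusted p = 0.0317 from edgeR), where it passed both thresholds.

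**Figure D4:**
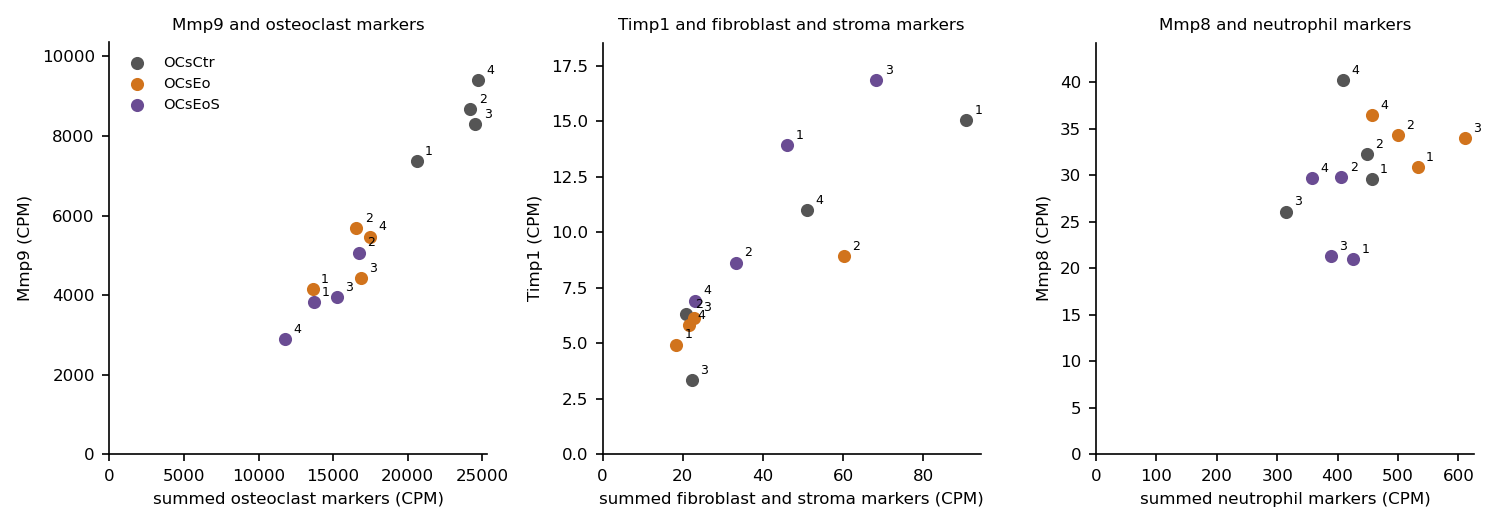
Mmp9, Timp1 and Mmp8 plotted against the summed CPM of osteoclast, fibroblast and stroma, and neutrophil markers. Each point is a library, numbered within its group, and all axes are linear in CPM from 0. The OCsCtr points lie at the top right of the Mmp9 panel, and the highest Timp1 point of each group is the one with the highest stroma marker sum.

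Timp3, the inhibitor that stays bound to the matrix, was at the low end of detection. It lies at chr10:86300372-86349506, plus strand. The values were 3.47, 1.39, 1.35 and 2.33 CPM in OCsCtr, 1.67, 3.93, 0.0769 and 0.831 in OCsEo, and 2.42, 1.04, 1.57 and 1.69 in OCsEoS. OCsEo held both the highest and the lowest library, OCsEo 2 and OCsEo 3, and the latter had 3 counts. The log2 fold changes of -0.38 (95% interval -1.78 to 1.01) and -0.35 (-1.74 to 1.05), with adjusted p-values of 0.741 and 0.753 from edgeR, leave a wide range. The OCsEo value rested on single libraries, at -1.32 without OCsEo 2, 0.02 without OCsEo 3 and -0.06 without OCsCtr 1, none of them called. Syn3, which overlaps Timp3, had 0 to 9 counts. The most similar genes were Irf2bpl (r = 0.932), Pabpc1 (0.925) and Lrrk1 (0.922).

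Summed per kilobase, the 6 metalloproteinase genes gave 2502 ± 245 CPM per kilobase in OCsCtr, 1501 ± 219 in OCsEo and 1201 ± 260 in OCsEoS. These sums mostly follow Mmp9, which made up 95.3%, 92.8% and 92.3% of them, while Mmp12 made up 0.281%, 1.76% and 1.45%. Without Mmp9 the sums were 118 ± 5.53, 108 ± 7.23 and 90.8 ± 7.91. The 3 inhibitor genes summed to 43.3 ± 7.35, 47.4 ± 0.501 and 46.9 ± 5.63, of which Timp2 made up 77.4%, 84.2% and 72.4%. The metalloproteinase sum was 59.1 ± 11.7 times the inhibitor sum in OCsCtr (44.6 to 72.3), 31.7 ± 4.70 times in OCsEo (26.6 to 36.2) and 25.7 ± 5.78 times in OCsEoS (22.4 to 34.3). The ratio of Mmp9 to Mmp12, per kilobase, was 348 ± 62.0, 54.2 ± 11.0 and 67.2 ± 18.5. These ratios describe transcripts, carry no test and say nothing of active enzyme.

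Other genes of the pericellular protease system are given from lists. Beside the counts of called genes stand the shares over all genes tested, 5.88% in OCsEo and 7.73% in OCsEoS, each against OCsCtr. Of 17 further metalloproteinase genes, 8 passed the filter, with medians of -0.11 and 0.22 in OCsEo and OCsEoS. Mmp25, a membrane-anchored metalloproteinase of leukocytes, was called higher in OCsEo (2.81, adjusted p = 0.00599 from edgeR), at 0.451 ± 0.178 CPM in OCsCtr and 3.15 ± 1.46 in OCsEo. In OCsEoS it held 0.911 ± 0.650 CPM (1.02, adjusted p = 0.309), and OCsEoS against OCsEo was not called (-1.79, adjusted p = 0.264). In OCsEoS 0 of the 8 were called by edgeR or DESeq2, with 1 at an unadjusted p under 0.05. The other 7 tested genes, Mmp2 and Mmp23 among them, had at most 127 counts in any library. Of 4 further inhibitors, Timp4, A2m and Pzp had no counts and Reck had 0 to 29, with no call by edgeR or DESeq2 (0 and 1 at an unadjusted p under 0.05).

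Among 16 partners and activators, 13 were tested, with 1 called higher and 1 lower in OCsEo and 2 lower in OCsEoS, and medians of -0.07 and -0.19. The integrin subunit gene Itgb3, also on the osteoclast marker list, fell in both groups (-0.99 and -0.91). Its partner Itgav was at -0.48 (adjusted p = 0.00727), under the cut-off, in OCsEo and fell in OCsEoS (-0.68, adjusted p = 3.25e-04). Spp1, the osteopontin gene, rose in OCsEo (0.67, adjusted p = 1.16e-06) and was at 0.36 in OCsEoS, under the cut-off. The most abundant per length beside Spp1, namely Cd63, Bsg, which encodes the metalloproteinase inducer basigin, and Cd44, a docking receptor for MMP9, were not called. Their log2 fold changes were 0.05 and -0.23, 0.10 and -0.03, and 0.12 and 0.01 in OCsEo and OCsEoS.

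In the plasminogen system, which generates plasmin, an activator of metalloproteinases, 10 of 12 genes were tested, with 2 higher and 1 lower in OCsEo and 1 and 1 in OCsEoS, and medians of 0.22 and 0.22. The protease inhibitor gene Serpine2 fell in both groups (-0.89 and -0.97). Plau, the urokinase gene, rose in OCsEo (0.54, adjusted p = 0.00257) and was at 0.38 in OCsEoS, while its receptor gene Plaur was at 0.39 in OCsEo and rose in OCsEoS (0.70, adjusted p = 3.97e-04). Serpinb2, the urokinase inhibitor PAI-2, rose from 1.94 ± 0.973 to 7.30 ± 1.35 CPM in OCsEo (1.91, adjusted p = 1.24e-04 from edgeR). It was at 2.23 ± 0.423 CPM in OCsEoS and was called lower there than in OCsEo (-1.71, adjusted p = 0.00496). S100a10, Anxa2 and Plgrkt, plasminogen receptors and the most abundant of the list beside Plau and Plaur, were not called, with log2 fold changes from -0.02 to 0.30.

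Of 18 ADAM and ADAMTS genes, 11 were tested and 1 was called in each group, where 5.88% and 7.73% of all genes were called. The medians were 0.20 and 0.17. The called gene was Adam8, a protease of myeloid cells and the most abundant of the list per length. It rose in both groups (0.60 and 0.58, adjusted p = 1.40e-04 and 1.32e-04 from edgeR). Adam10, Adam9 and Adam17, the next in abundance, were not called. Of 18 matrix substrates, 16 were tested, with a median of -0.75 in OCsEo and -0.09 in OCsEoS against -0.01 over all genes. Hspg2, the perlecan gene, was called lower in both groups (-0.96 and -0.94), and the other 15 were not called. At an unadjusted p under 0.05 there were 3 and 1. Col18a1, Lamc1 and Sparc had the highest levels of this list, at most 5.86 CPM per kilobase. Sparc, Col1a1, Col1a2 and Col3a1 are also on the list of stroma markers, which had medians of -0.70 in OCsEo and -0.20 in OCsEoS, and the part of stroma cells in the substrate values was not tested.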

How the data were processed

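The authors sequenced 12 libraries, removed poor reads with fastp, aligned them with HISAT2 2.0.5 to mm10 (GRCm38) and counted reads per gene with featureCounts. The deposited values are raw counts per gene, without normalization or filtering. The annotation release and the use of strand are not given in the sources used here. Of the 47643 genes, filterByExpr (minimum count 10) kept 13681, among them all 9 members, so that the permutation test planned for members under the filter was not needed. Libraries were scaled by TMM, and 1 fit of 12 libraries in 3 groups was compared between groups by the quasi-likelihood test of edgeR (edgeR 4.0.16, limma 3.58.1, R 4.3.3). Adjusted p is the Benjamini-Hochberg value over all genes, the thresholds (0.05 and an absolute log2 fold change of 0.5) are those of the study, and intervals are 95% with 9 residual degrees of freedom. The study used DESeq2, which was run as an alternative (1.42.0). On simulated data for OCsEo against OCsCtr with 13389 genes, edgeR recovered 100 of 100 genes changed by 1 log2 unit and 100 of 100 changed by 2, with 0 false calls, and DESeq2 the same with 9 false calls. The changed genes were drawn from those with a log2 mean CPM over 2, with the spread estimated from these same libraries. The simulation therefore does not cover genes as low as Mmp13 and Timp3, or changes smaller than 1 log2 unit such as those of Mmp14 and Mmp19. Total counts were 27837530 to 40327869 per library, and intervals cover the spread between libraries while floors cover counting error only. The coordinates are those of the deposited table, overlaps and transcript lengths come from GENCODE vM21, which holds 99.1% of the gene identifiers, and promoters come from RefSeq.

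The members and lists were chosen with earlier results of these data known. The genes named are the 9 members, every list gene called against OCsCtr with up to 3 further genes of each list by level per length, the 3 genes most correlated with each member, and genes that overlap a member. Marker genes named were those called or at 0, and Ccr3, Ear2, Cd68 and some stroma markers, chosen after their values were seen. The alternatives were other normalizations, filters, fold change thresholds and fits, a replicate block and each library left out in turn.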

Additional observations from a re-analysis of the deposited data

Results flagged for a closer look

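Mmp13 had a single library apart from the others in each stimulated group. OCsEo 1 held 1.61 CPM against 0.930 to 1.00 in the other 3 OCsEo libraries, and OCsEoS 2 held 2.60 CPM against 1.49 to 1.63, gaps that passed Dixon's 95% critical value for 4 samples. With 27 pairs of gene and group examined, chance alone marks about 1 in 20 groups, and these values rest on 54 and 90 counts. Mmp12 differed between the stimulated groups when they were compared directly, with a log2 fold change of -0.64 in OCsEoS against OCsEo (edgeR, adjusted p = 0.0148).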

How the results depend on the processing

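The called members were 3, 4 and 1 in OCsEo against OCsCtr, OCsEoS against OCsCtr and OCsEoS against OCsEo, and DESeq2, its size factors, upper-quartile scaling, at least 10 counts in every library and fits of 2 groups gave the same 3 counts. A fold change cut-off of 1 gave 1, 2 and 0, and edgeR's glmTreat against 0.5 also gave 1, 2 and 0, where 6 members had an unadjusted p under 0.05 between the stimulated groups in the edgeR test against 0. Without a cut-off the counts were 4, 4 and 1, and without a filter on low counts 2 members (Mmp12 and Timp1) were called between the stimulated groups. Leaving out 1 library in turn gave 2 to 3, 3 to 4 and 0 to 1, and the libraries that decided a call are named with the genes. No log2 fold change of a called member changed sign. With a replicate block the counts were 3, 4 and 1, and 6.24%, 8.1% and 0.49% of all genes were called. Same-numbered libraries of different groups correlated at -0.04 to 0.09 over 12 pairs (median 0.04). Libraries of different numbers correlated at -0.11 to 0.12 over 36 pairs (median -0.01). Such low correlations cannot exclude a pairing of the cultures. The block was not used because the study names none. Depth limits Mmp13 and Timp3, at 3 to 148 counts per library.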
